A study of Mus musculus with 4 samples.

Results

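The IL-6 family signals through a shared receptor subunit, and 10 of its genes were described in single cells from mouse pancreas and pancreatic tumours. They were taken by symbol from the 32285 genes of each count matrix: the ligands Il6, Il11, Lif and Osm, the receptor subunits Il6ra, Il11ra1, Lifr, Osmr and Il6st, and the feedback inhibitor Socs3. All 10 symbols were found once in each of the 4 matrices.

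The 4 groups were normal pancreas, pancreas ligated by a suture across its middle (which blocks the duct and brings on pancreatitis), control KPC tumour and AF12198 tumour. KPC cells are pancreatic cancer cells from a genetically engineered mouse model. Both tumours were allografts grown from KPC cells placed in a pancreas that had been ligated first, so the control tumour also carries the ligation. The host received intraperitoneal saline (control) or AF12198, a small peptide that blocks the interleukin-1 receptor IL1R1, once a week, and all tissues were taken at 4 weeks. Each group is 1 library, and the strain, age and number of animals behind a library are not stated in the labels. The differences between libraries therefore have no replicate check and no test was made. All intervals are 95% intervals (exact Poisson for levels, exact conditional for ratios, Clopper-Pearson for shares) that cover counting error only.

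As background, each of these ligands signals through a receptor that joins a further subunit to gp130, the protein encoded by Il6st, which is found on many cell types. IL-6 and IL-11 use IL6RA and IL11RA1 to reach gp130, LIF uses LIFR, and OSM uses OSMR. The assembled receptor activates JAK kinases and the transcription factor STAT3, and SOCS3, itself a STAT3 target, binds gp130 and dampens the signal. In pancreatic cancer the family is best known from inflammatory fibroblasts that make IL-6 and LIF after exposure to IL-1.

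Between the tumours Il6 was lower and Il11 higher with AF12198 in fibroblast-like cells, so the stretches before their transcription starts are shown first. Both windows are 250 bases long and come from RefSeq on build GRCm38, which is the same assembly as mm10, at chr5:30012864-30013113 on the plus strand for Il6 and chr7:4778142-4778391 on the minus strand for Il11. RefSeq gives another Il11 start farther upstream, whose window (chr7:4782858-4783107) held none of the motifs searched. Capitals mark the NF-kB match in Il6 and the AP-1 match in Il11.
Il6: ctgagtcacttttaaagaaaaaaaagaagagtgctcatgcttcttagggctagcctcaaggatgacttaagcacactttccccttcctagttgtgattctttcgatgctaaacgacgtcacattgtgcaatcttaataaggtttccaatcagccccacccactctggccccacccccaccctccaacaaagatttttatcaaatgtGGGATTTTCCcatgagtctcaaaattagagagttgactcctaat
Il11: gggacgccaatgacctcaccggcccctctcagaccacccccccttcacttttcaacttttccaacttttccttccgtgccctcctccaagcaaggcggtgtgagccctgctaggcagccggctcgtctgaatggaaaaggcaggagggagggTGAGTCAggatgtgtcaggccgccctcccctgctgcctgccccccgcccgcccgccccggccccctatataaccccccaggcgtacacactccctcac
An NF-kB pattern with alternative letters at some positions, not spelled out here, was searched on both strands. So were GGAAA (NFAT), TGANTCA (AP-1), TTNNGNAA (C/EBP) and TTCNNNGAA (STAT). The Il6 window held GGGATTTTCC for NF-kB at position -44 before the start, TGAGTCA for AP-1 at -249, TTGTGCAA for C/EBP at -128 and 3 GGAAA matches, of which the one at -39 overlaps the NF-kB match. The Il11 window held TGAGTCA at -98 and 3 GGAAA matches, the nearest at -118, and no match for NF-kB. The Socs3 window (chr11:117969367-117969616, minus strand) held TTCTTAGAA for STAT at -154. Of 32851 RefSeq windows of the same length, 3.90% held the NF-kB motif, 6.75% AP-1, 7.02% STAT, 36.8% C/EBP and 55.6% GGAAA, so GGAAA alone distinguishes little. These are letter matches and not measured binding sites. Windows were matched for 9 of the 10 genes, all but Osm.

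Normal pancreas, ligated pancreas, control and AF12198 tumour (the order of values from here on) kept 1769, 1124, 19288 and 18851 cells, with medians of 1589, 2216, 2041 and 2295 unique molecular identifiers (UMIs, the counted transcript copies) per cell. Cells were grouped into 29 clusters without using the 10 genes, and clusters were named by markers with the ending -like. Fibroblast-like cells, a single cluster with 16 of 16 markers raised, numbered 89, 280, 1358 and 520, macrophage or monocyte-like cells 27, 170, 4930 and 4481, and neutrophil-like cells 0, 85, 6012 and 7414. Endothelial-like cells lay in a cluster led by Emcn and Plvap (256, 90, 399 and 312 cells) and in one led by Ccl21a, Mmrn1 and Lyve1 (3, 38, 102 and 30). Levels of the endothelial-like class therefore compare different mixes of these clusters. The normal library held only 2 acinar-like cells, the main cell of the healthy gland, and 624 of its cells lay in an unnamed, shallow cluster led by Ins1, Ins2 and Iapp. The libraries shared 175 of 47863 distinct cell barcodes, 128 of them among kept cells. A level is the gene's share of all UMIs of a class scaled as CPM, counts in every 1000000. Counts from the 3' end are compared for 1 gene at a time and not between genes.

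**Figure D1:**
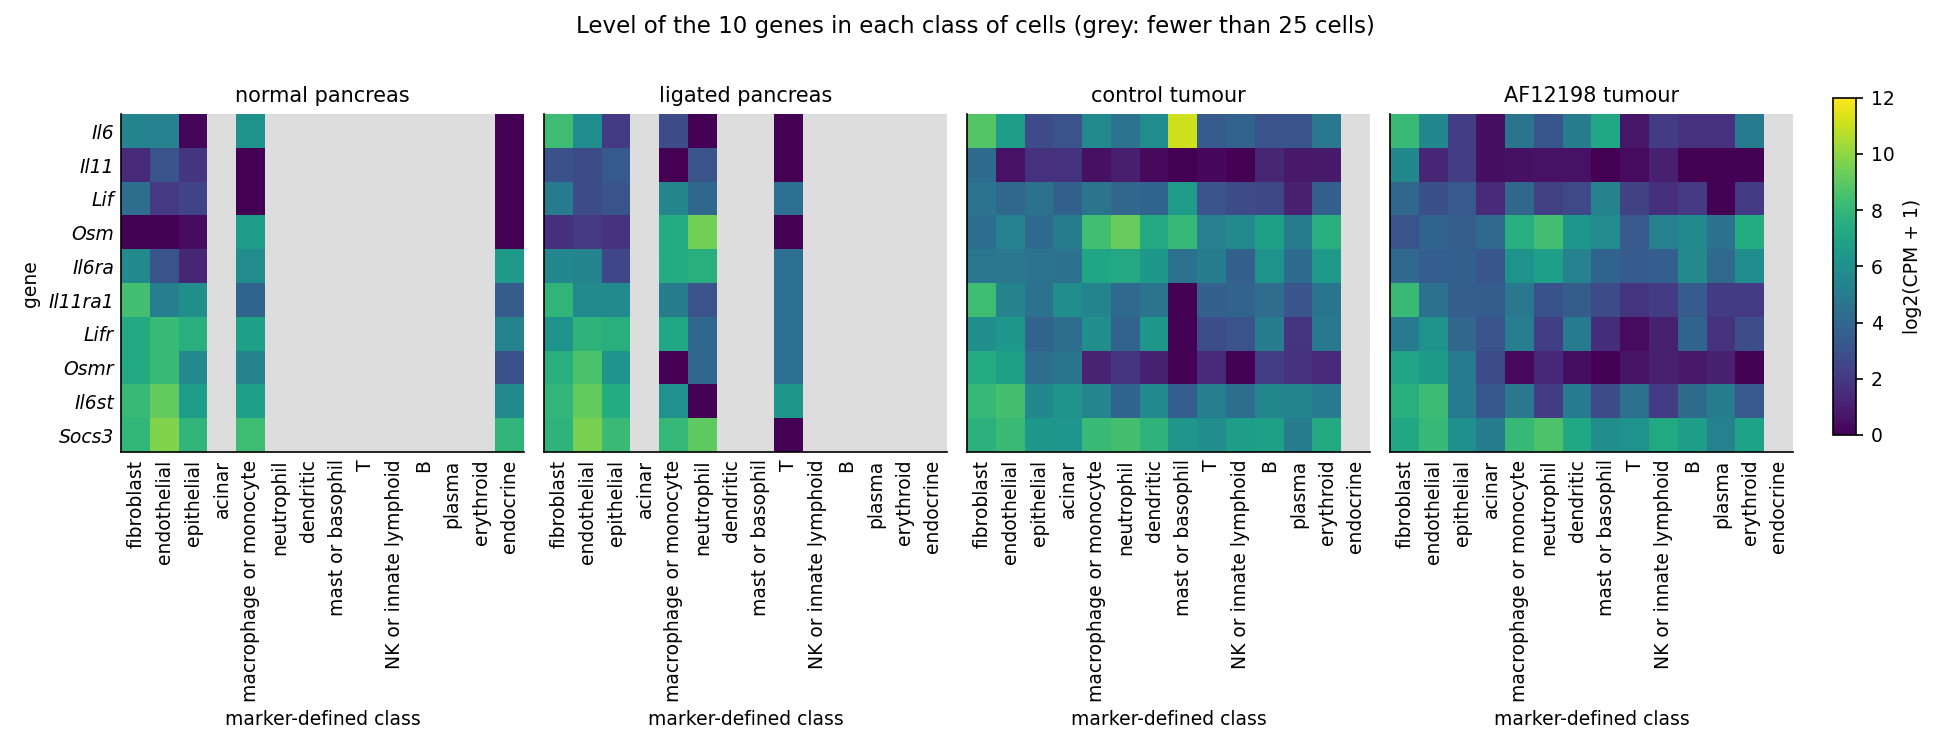
Level of each of the 10 genes, as log2(CPM + 1) on the colour scale, in each marker-defined class (columns) of the 4 libraries (panels); grey columns had fewer than 25 cells. Il6 was high in fibroblast-like cells of 3 libraries, Osm in neutrophil-like cells of all libraries that held them, and the receptor genes Il6st, Osmr and Lifr in endothelial-like cells.

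Il6 (chr5:30013114-30019981, plus strand, a protein-coding gene) encodes the founding cytokine of the family. In fibroblast-like cells its level was 40.3 CPM in normal pancreas (23 UMIs), 311 in ligated pancreas (593), 446 in control tumour (6181) and 268 in AF12198 tumour (1542). The order was thus normal lowest, then AF12198 tumour and ligated pancreas, then control tumour, with counting intervals of 25.6 to 60.5, 255 to 282, 286 to 337 and 435 to 458 CPM that did not overlap. The control tumour stood at 1.44 times the ligated level (1.32 to 1.56) and the AF12198 tumour at 0.601 times the control level (0.568 to 0.636). The median gene of this class stood at 0.818 times its control level in the AF12198 tumour, and relative to that median the Il6 ratio was 0.734.

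The share of fibroblast-like cells with an Il6 UMI, after every cell was thinned to 1000 UMIs, was 3.8%, 13.5%, 21.5% and 18.4% in the same order. Unthinned it was 13.5%, 29.6%, 47.3% and 47.3%, at median depths of 4910, 4492.5, 8528.5 and 9459 UMIs. T-like cells of the tumours, which should lack the gene, had thinned shares of 0.772% and 0.049% at median depths of 1923 and 2694 UMIs. A small set of cells carried most of the message: the tenth of fibroblast-like cells richest in Il6 held 87.0% of its UMIs in normal, 83.0% in ligated, 66.4% in control tumour and 62.5% in AF12198 tumour.

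Of all Il6 UMIs in a library, fibroblast-like cells held 32.9%, 84.6%, 71.9% and 53.5% in the order normal, ligated, control and AF12198 tumour. Endothelial-like cells led in normal pancreas with 37.1%, an interval (25.9 to 49.5%) that overlapped that of the fibroblast-like cells (22.1 to 45.1%). Macrophage or monocyte-like cells held 12.7% in control tumour and 26.1% in AF12198 tumour. These shares also depend on how many cells of each class a library captured.

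**Figure D2:**
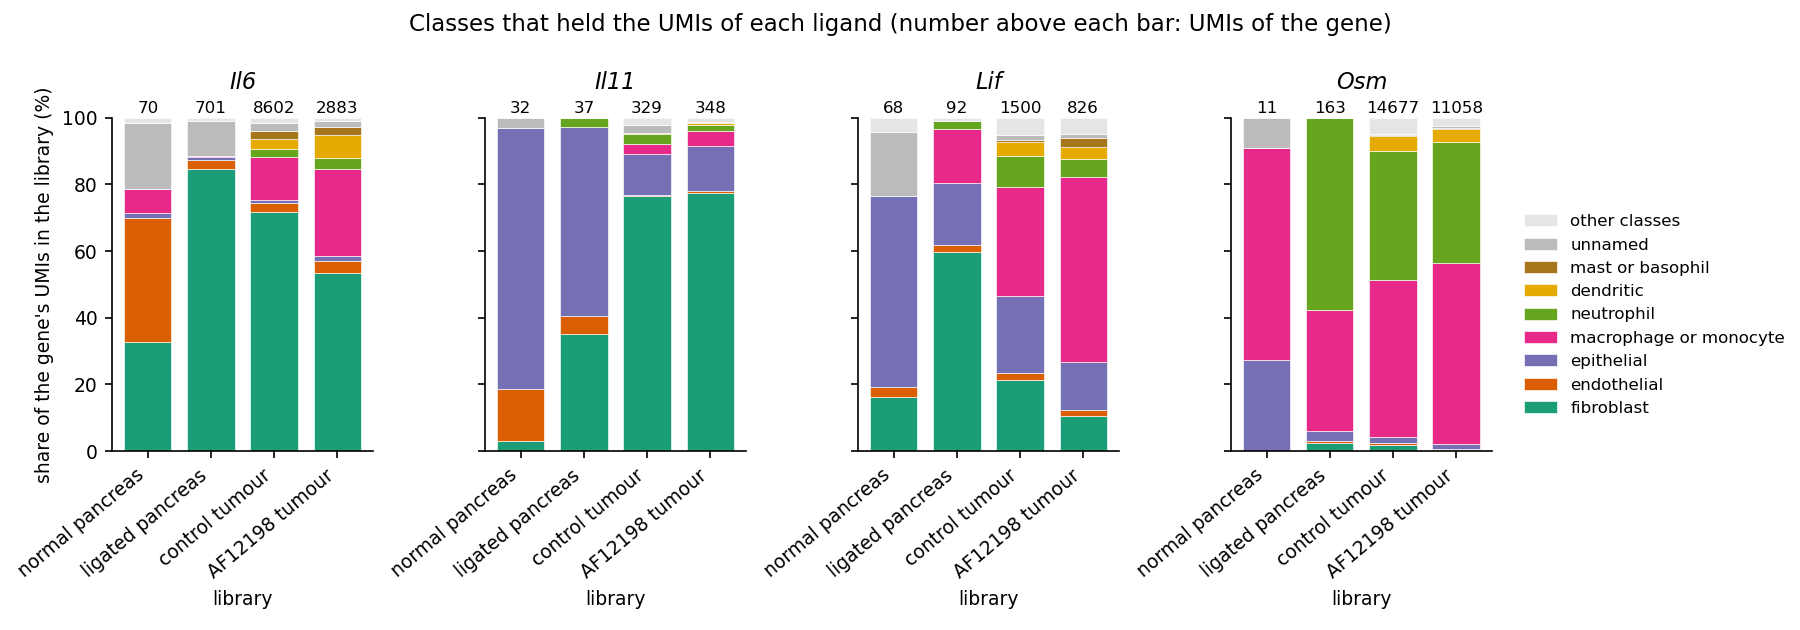
Share of each ligand's UMIs (vertical axis, %) held by each class in the 4 libraries, with the number of UMIs of the gene above each bar. Fibroblast-like cells held most Il6 in ligated pancreas and both tumours and most Il11 in both tumours, while macrophage or monocyte-like and neutrophil-like cells together held most Osm in ligated pancreas and both tumours.

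Outside the fibroblast-like cells, Il6 stood at 39.3, 55.8, 103 and 47.3 CPM in endothelial-like cells, against 0.791, 21.3, 20.3 and 3.51 CPM estimated for free RNA (transcripts from other cells that enter a droplet). A small unnamed cluster led by Rgs5 and Notch3, with 11 of 12 pericyte or smooth muscle markers and 10 of 14 endothelial markers raised, had 499, 1154, 469 and 134 CPM in 9, 20, 95 and 41 cells. Its AF12198 level was 0.286 times the control level (0.205 to 0.392), a lower ratio than in fibroblast-like cells. In mast or basophil-like cells the level was 2243 CPM in the 31 cells of the control tumour (205 UMIs) and 145 CPM in the 164 cells of the AF12198 tumour (75 UMIs). Much of the first value came from few cells: 4 of the 31 held 155 of the 205 UMIs, with 62, 35, 34 and 24 each. Of these 4 cells 3 held the basophil gene Mcpt8 and 0 the mast cell gene Cma1, which 23 of the 31 cells held, and 155 of the 164 in the AF12198 tumour. The other 27 cells stood at 611 CPM. Without its 4 highest cells the AF12198 value was 107 CPM, so the difference remained but was smaller.

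Il6 was also lower with AF12198 in macrophage or monocyte-like and dendritic-like cells. Macrophage or monocyte-like cells stood at 52.0 CPM in control tumour and 23.8 in AF12198 tumour (0.458, 0.417 to 0.503). They lay mostly in clusters led by Nrg1 and Ccr2 or by Fcna and Ccl8 in the control tumour and in clusters led by Arg1 and Mmp12 or by Ms4a4c and Ccr2 in the AF12198 tumour. Within the Arg1-led cluster, which both tumours filled, the levels were 81.8 and 25.7 CPM (0.314, 0.276 to 0.358). Dendritic-like cells stood at 56.8 and 33.4 CPM. In T-like cells (9.96 and 0.676 CPM) and control neutrophil-like cells (22.8 CPM) the level was at or under the free-RNA estimate (18.3 and 2.34 CPM, and 25.7 CPM), and no Il6 of their own was detectable there.

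Il11 (chr7:4772373-4782859, minus strand, protein-coding) encodes a cytokine known for its action on fibroblasts. Its level in fibroblast-like cells was 1.75 CPM in normal pancreas (1 UMI), 6.82 in ligated pancreas (13), 18.2 in control tumour (252) and 46.8 in AF12198 tumour (269). Unlike Il6, it was highest in the AF12198 tumour, at 2.57 times the control level (2.16 to 3.07). The 99.2% of genes measured in that class and comparison that had a lower ratio include every other gene of the family. The control tumour stood at 2.67 times the ligated level (1.53 to 5.09). Thinned to 1000 UMIs, 0%, 0.398%, 1.33% and 2.79% of fibroblast-like cells had an Il11 UMI (unthinned 1.12%, 4.64%, 8.25% and 13.1%), against 0% of T-like cells in both tumours.

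The cells that held Il11 differed between pancreas and tumour. Epithelial-like cells held 78.1% of its 32 UMIs in normal and 56.8% of its 37 UMIs in ligated pancreas. These shares also depend on the cells captured. Epithelial-like cells held 8993730 of all 11212142 kept UMIs in normal and 2217445 of 5315805 in ligated pancreas. By level, endothelial-like cells came first in normal pancreas (7.55 CPM), with an interval that overlapped that of epithelial-like cells. In the tumours epithelial-like cells held 12.2% of 329 and 13.5% of 348 UMIs, and fibroblast-like cells held 76.6% and 77.3%. In epithelial-like cells, which were duct-type cells led by Dcdc2a and Ces1d in the pancreas libraries and mainly cells led by Tff1 or by Onecut2 and Hmga2 in the tumours, the level was 2.78, 9.47, 2.39 and 3.58 CPM. Over the whole library Il11 stood at 4.07 CPM in each tumour, since the AF12198 tumour had a higher level in fewer fibroblast-like cells.

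At a finer clustering (resolution 2.0) 2 clusters were fibroblast-like, one led by Clec3b, Abca8a and Scara5 and one led by Tnc, Col8a1 and Col12a1, extracellular matrix genes of activated fibroblasts. The Clec3b-led cluster held 149, 230, 560 and 191 cells in the order normal, ligated, control and AF12198 tumour, and the Tnc-led cluster 52, 796 and 331 cells in the last 3. In normal pancreas 60 of the 149 cells were not fibroblast-like in the coarser clustering, 59 of them unnamed, against at most 3 cells of either cluster in each other library. Il6 stood at 37.7, 272, 802 and 521 CPM in the Clec3b-led cluster and at 366, 288 and 186 CPM in the Tnc-led cluster. In both tumours it was higher in the Clec3b-led cells, 2.79-fold in control (2.65 to 2.93) and 2.80-fold in AF12198 tumour (2.53 to 3.10), whereas in ligated pancreas these cells stood at 0.743 times the Tnc-led level (0.631 to 0.876).

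Il11 had the opposite distribution in the tumours. It stood at 1.64, 8.89, 3.73 and 12.7 CPM in the Clec3b-led cluster and at 3.82, 24.8 and 57.9 CPM in the Tnc-led cluster. The Tnc-led cells were thus higher by 6.65-fold in control tumour (4.01 to 11.8) and 4.54-fold in AF12198 tumour (2.82 to 7.79). The contrast between the tumours was seen inside each cluster: Il6 in the AF12198 tumour stood at 0.650 and 0.646 times its control level in the Clec3b-led and Tnc-led cells, and Il11 at 3.42 times (1.64 to 7.16) and 2.33 times (1.95 to 2.80). The median gene of these clusters stood at 0.821 and 0.823 times its control level. Of the genes measured there, 24.4% and 20.9% had a lower ratio than Il6, and 99.45% and 98.73% a lower ratio than Il11. For Il6 the comparison of control tumour with ligated pancreas differed by cluster, at 2.95 times (2.62 to 3.33) in the Clec3b-led cells and 0.786 times (0.696 to 0.891) in the Tnc-led cells. The higher Il6 of the control tumour over ligated pancreas was therefore seen in the Clec3b-led cells and not in the Tnc-led cells. Kept to cells that were fibroblast-like in both clusterings, the tumour ratios were 0.650 and 0.647 for Il6 and 3.42 and 2.34 for Il11, and Il6 in the 89 normal cells stood at 40.3 CPM.

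**Figure D3:**
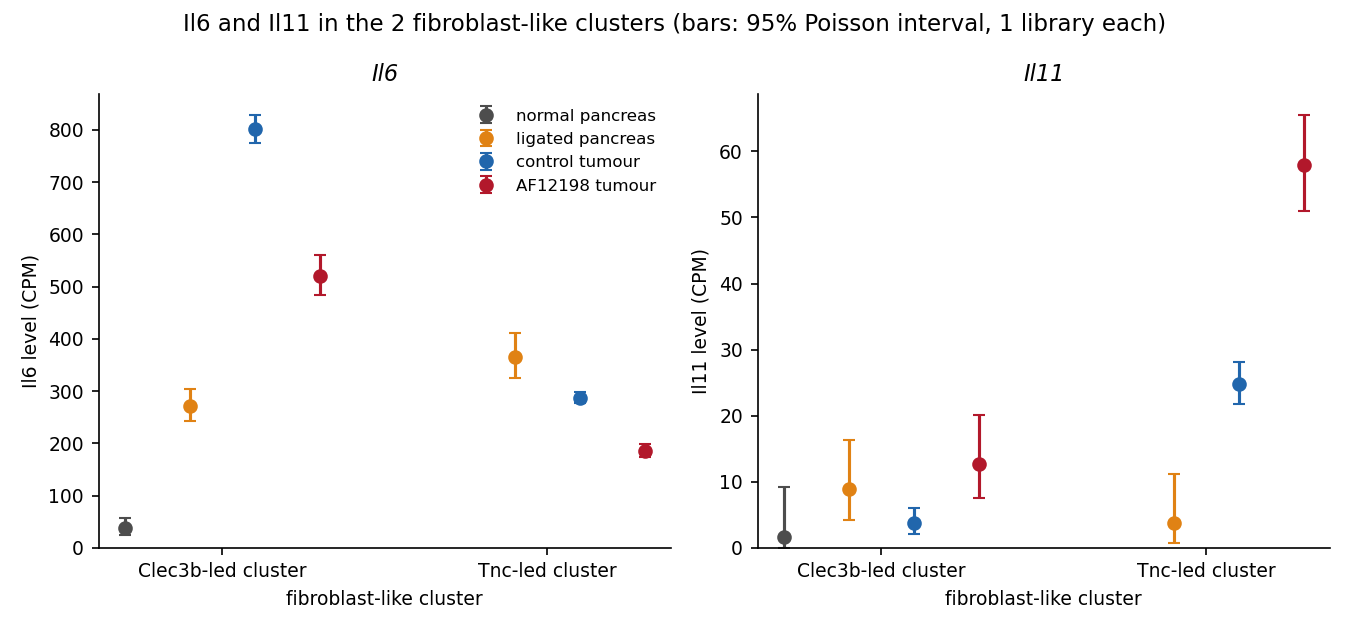
Il6 (left) and Il11 (right) levels in CPM in the Clec3b-led and Tnc-led fibroblast-like clusters; points are single libraries and bars 95% Poisson intervals, and normal pancreas is shown only where it had at least 25 cells. Il6 peaks in Clec3b-led cells of the control tumour at 802 CPM, and Il11 in Tnc-led cells of the AF12198 tumour at 57.9 CPM.

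Lif (chr11:4257557-4272514, plus strand, protein-coding) encodes leukemia inhibitory factor. In fibroblast-like cells its level was 19.3 CPM in normal (11 UMIs), 28.8 in ligated (55), 23.0 in control tumour (318) and 15.3 in AF12198 tumour (88), a narrower range than that of Il6. In the ligated pancreas the message lay in the Tnc-led cells, at 58.6 CPM against 8.0 in the Clec3b-led cells (7.33-fold). In epithelial-like cells it was 4.34, 7.67, 21.0 and 9.07 CPM, highest in the control tumour at 2.73 times the ligated level (1.68 to 4.75). The AF12198 tumour stood at 0.433 times the control level (0.349 to 0.534).

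Within the tumour epithelium Lif was found in the cluster led by Onecut2, Hmga2 and Foxq1, at 22.7 CPM in control (316 UMIs) and 9.77 in AF12198 tumour (101 UMIs). The Tff1-led cells had 19 and 1 UMIs. Macrophage or monocyte-like cells held 32.6% of the library's Lif in control tumour and 55.4% in AF12198 tumour, at 23.2 and 14.5 CPM. The 43.5 CPM of this class in ligated pancreas rested on 15 UMIs in 1.18% of its cells.

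Osm (chr11:4236420-4241026, plus strand, protein-coding) encodes oncostatin M and lies close to Lif on the same chromosome and strand. Its highest class was neutrophil-like cells where a library held them, and macrophage or monocyte-like cells in normal pancreas. In neutrophil-like cells its level was 690 CPM in ligated pancreas (94 UMIs), 583 in control tumour (5660) and 338 in AF12198 tumour (4020). The ligated and control values did not differ beyond counting error (0.846, 0.690 to 1.05), and the AF12198 level was 0.579 times the control level (0.556 to 0.603). In macrophage or monocyte-like cells it was 94.7 CPM in normal (7 UMIs), 171 in ligated (59), 329 in control tumour (6936) and 190 in AF12198 tumour (6005), with the control at 1.92 times the ligated level (1.49 to 2.53) and the AF12198 tumour at 0.577 times the control level (0.558 to 0.598).

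Neutrophil-like cells lay in different clusters in the libraries, 88.4% of them in a cluster led by Hdc and Il1r2 in the control tumour, 53.0% in one led by Gpr84, Il23a and Tnf in the AF12198 tumour and 83.5% in one led by Rdh12, Mirt2 and Il1f9 in the ligated pancreas. Osm was therefore also read cluster by cluster. In the Rdh12-led cluster it stood at 715 CPM in ligated pancreas, 1827 in control tumour and 766 in AF12198 tumour (0.419 times control, 0.389 to 0.453). In the Hdc-led cluster the values were 532 and 435 CPM (0.819, 0.682 to 0.975), in the cluster led by Ngp and Camp, genes of immature neutrophil granules, 526 and 110 CPM (0.209, 0.175 to 0.250), and in the Gpr84-led cluster 168 and 102 CPM (0.606, 0.451 to 0.831). The AF12198 level was lower in all 4 neutrophil-like clusters, but by very different amounts. These ratios are not relative to the median gene. Over the whole neutrophil-like class the AF12198 over control ratio of Osm was 0.762 relative to the median of all genes.

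Among macrophage or monocyte-like clusters, those led by Nrg1, Fcna, Arg1 and Ctsk stood at 399, 307, 316 and 227 CPM in control and 206, 192, 186 and 82.6 CPM in AF12198 tumour. Their ratios were 0.517, 0.628, 0.589 and 0.364, also not relative to the median gene. The Ms4a4c-led, Ccr2-positive and Ly6c2-positive cells, the genes of inflammatory monocytes, stood at 304 and 269 CPM and did not differ beyond counting error (0.886, 0.714 to 1.11). In fibroblast-like, endothelial-like, epithelial-like and T-like cells of the tumours Osm was near the free-RNA estimate (in fibroblast-like cells 19.1 against 23.4 CPM in control and 7.31 against 8.25 CPM in AF12198 tumour). In normal pancreas no Osm UMI was found in fibroblast-like cells, with a counting interval that reaches 6.47 CPM.

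**Figure D4:**
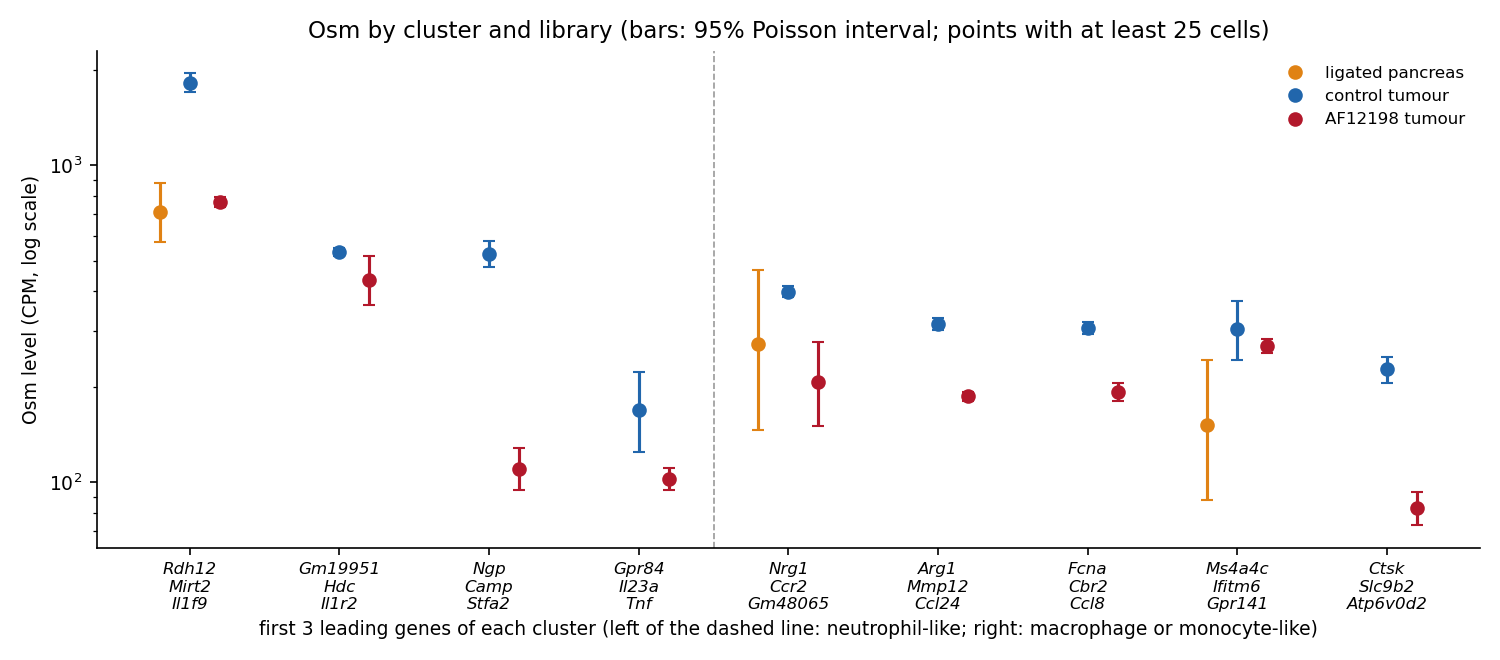
Osm level in CPM, on a log axis, in the neutrophil-like clusters (left of the dashed line) and macrophage or monocyte-like clusters (right), each named by its first 3 leading genes; bars are 95% Poisson intervals and points with fewer than 25 cells are left out. The control tumour lies above the AF12198 tumour in each of the 9 clusters, with overlapping intervals in the Ms4a4c-led one.

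Receptor subunits had another distribution from the ligands. Il6ra (chr3:89864059-89913196, minus strand, protein-coding) encodes the IL-6 binding subunit. It stood at 191, 148 and 110 CPM in neutrophil-like cells of ligated pancreas, control and AF12198 tumour and at 54.1, 168, 134 and 70.4 CPM in macrophage or monocyte-like cells of all 4 libraries. In fibroblast-like cells it was 52.6, 45.6, 25.6 and 16.4 CPM, at 0.561 times the ligated level in control tumour (0.442 to 0.717). In normal pancreas endocrine-like cells had 88.2 CPM (26 UMIs), an interval that overlapped those of macrophage or monocyte-like and fibroblast-like cells.

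Il6st (chr13:112464070-112510086, plus strand, protein-coding), the gene of gp130, was highest in endothelial-like cells of all 4 libraries. There it stood at 551, 546, 355 and 294 CPM, and in fibroblast-like cells at 284, 248, 266 and 182 CPM. Neutrophil-like cells, which carried Il6ra, had no Il6st UMI in ligated pancreas, 13.4 CPM in control tumour and 3.28 CPM in AF12198 tumour, all under the free-RNA estimates of 17.3, 21.4 and 4.60 CPM. After thinning, 2 of 4834 neutrophil-like cells of the control tumour (0.0414%) had both Il6ra and Il6st, and 0 had Osmr and Il6st, with an interval that reaches 0.0763%. Of 1349 fibroblast-like cells of the same library 101 (7.49%) had both Il11ra1 and Il6st, 60 (4.45%) Osmr and Il6st, 27 (2.0%) Lifr and Il6st and 12 (0.890%) Il6ra and Il6st. These shares depend on the level of each gene, and at this depth a cell without a UMI may still have held the transcript.

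Osmr (chr15:6813577-6874969, minus strand, protein-coding), the oncostatin M subunit, stood at 154, 181, 165 and 126 CPM in fibroblast-like cells. In endothelial-like cells it was 270, 370, 112 and 92.2 CPM, and the control tumour stood at 0.303 times the ligated level (0.243 to 0.380). The mix of endothelial-like clusters differed between these libraries. In macrophage or monocyte-like cells of the tumours it was under the free-RNA estimate (1.28 against 4.08 CPM in control, 0.253 against 0.833 CPM in AF12198 tumour). Epithelial-like cells had 49.1, 73.1, 18.3 and 31.2 CPM, and here the AF12198 tumour was higher than control, 1.71-fold (1.47 to 1.99). The difference lay in the Onecut2-led cells, at 14.3 CPM in control (198 UMIs) and 30.3 in AF12198 tumour (313 UMIs), 2.12-fold (1.77 to 2.55), while the Tff1-led cells had 10 and 9 UMIs. The few duct-type cells of the tumours stood at 124 and 94.8 CPM.

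Lifr (chr15:7090614-7197489, plus strand, protein-coding), the LIF subunit, differed most between pancreas and tumour epithelium. It was 184, 187, 13.2 and 14.4 CPM in epithelial-like cells, so the control tumour stood at 0.0707 times the ligated level (0.0598 to 0.0835), with 1.93% of measured genes at a lower ratio. Duct-type cells of the tumours, in contrast, had 133 and 88.3 CPM (105 and 81 UMIs in 96 and 79 cells), and the Onecut2-led cells had 7.20 and 9.96 CPM. The class ratio thus compares different kinds of epithelial cell.

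Lifr in fibroblast-like cells was 158, 68.2, 62.4 and 28.7 CPM, at 0.432 times the normal level in ligated pancreas (0.327 to 0.571) and at 0.460 times the control level in AF12198 tumour (0.387 to 0.544). In endothelial-like cells it was 269, 223, 83.2 and 70.0 CPM. The dendritic-like cluster led by Siglech and Ccr9, genes of plasmacytoid dendritic cells, had 427 CPM in control and 181 in AF12198 tumour (90 and 75 cells).

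Il11ra1 (chr4:41699989-41769474, plus strand, protein-coding), the IL-11 subunit, was highest in fibroblast-like cells of all 4 libraries, at 337, 228, 308 and 275 CPM. The AF12198 level there was 0.894 times control (0.843 to 0.947), which is above the median gene of the class (1.09 relative to it). In control tumour it was 448 CPM in Clec3b-led and 245 CPM in Tnc-led cells, so the receptor gene was lower in the cells with more Il11. The near-identical copy Il11ra2, listed under 3 gene identifiers, had 0 UMIs in all libraries, and the Il11ra1 counts are uncertain to the extent that reads fit both copies.

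Socs3 (chr11:117966079-117970047, minus strand, protein-coding) encodes the feedback inhibitor that binds gp130. It stood at 852, 737, 292 and 259 CPM in endothelial-like cells, and the control tumour was at 0.396 times the ligated level (0.341 to 0.461). In fibroblast-like cells it was 246, 226, 208 and 142 CPM. Within the control tumour it was 351 CPM in Clec3b-led and 142 CPM in Tnc-led cells, 2.46-fold (2.29 to 2.65). The AF12198 tumour gave 2.43-fold (2.11 to 2.80), and in both tumours Il6 was higher on the same side. In ligated pancreas Socs3 was 1.29-fold higher in Clec3b-led cells (1.06 to 1.59), whereas Il6 was lower there (0.743, 0.631 to 0.876). Myeloid classes differed in their AF12198 over control ratio. Dendritic-like cells stood at 143 against 220 CPM (0.649, 0.591 to 0.713), macrophage or monocyte-like cells stood at 311, 252, 269 and 259 CPM, and neutrophil-like cells at 513, 350 and 397 CPM (1.13 times control, 1.09 to 1.19). The macrophage ratio of 0.963 stood above the median gene (1.21 relative to it), and it lay above 1 in 4 of the 11 alternative settings tried for ratios.

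Values past 1.5-fold were counted where a pair of libraries both held 25 or more cells of a class and together 20 or more UMIs of the gene. A count of 0 was set at a floor of 3 UMIs, so a fold against it is a lower bound. Between ligated and normal pancreas 8 of 27 such values in 4 classes were higher and 2 lower. In fibroblast-like cells this was Il6 higher and Lifr lower among 8 genes, where 20.4% of all genes tested were higher and 18.1% lower. In epithelial-like cells Il11, Lif, Il6ra and Il6st were higher and none of the 8 was lower, beside 15.9% and 12.2% of all genes. In macrophage or monocyte-like cells 2 of 5 were higher and 1 lower (40.2% and 14.4% of all genes), and in endothelial-like cells 1 of 6 was higher and 0 lower (29.0% and 18.3%).

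Between control tumour and ligated pancreas 13 of 55 values in 6 classes were higher and 20 lower. In 5 of the 13 the control level was under 2 times the free-RNA estimate, and in 3 of the 20 the ligated level was. In epithelial-like cells Il6, Lif, Osm and Il6ra were higher and the other 6 genes lower, beside 27.6% and 38.7% of all genes. Il6 and Osm there (5.67 and 15.9 CPM in control tumour) were among the 5 under 2 times the free-RNA estimate, so no rise of their own can be read for these cells. In endothelial-like cells Il6ra, Il6st, Osmr, Lifr and Socs3 were lower, 5 of 9, beside 27.7% of all genes, and 3 were higher beside 27.1%. In fibroblast-like cells 2 of 10 were higher and 1 lower, beside 23.8% and 16.1%. In macrophage or monocyte-like cells 2 of 9 were higher and 3 lower (18.0% and 27.3% of all genes), in neutrophil-like cells 1 and 1 of 9 (24.4% and 17.4%) and in T-like cells 1 and 4 of 8 (15.6% and 27.9%). The calls rest on point folds, and the last 2 classes held only 136320 and 49722 UMIs in ligated pancreas. Il6ra, Lif, Lifr and Il11ra1 in ligated T-like cells (20.1 CPM) and Il11ra1 in ligated neutrophil-like cells (7.34 CPM) had 1 UMI each. Another 6 values, Il6, Osm and Socs3 in T-like, Il6 and Il6st in neutrophil-like and Osmr in macrophage or monocyte-like cells, had 0 UMIs in ligated pancreas and a lower bound under 1.5, so that no direction could be given at this depth.

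Between AF12198 and control tumour 2 of 96 values in 13 classes were higher, Il11 in fibroblast-like and Osmr in epithelial-like cells, and 65 were lower. Of these 65, 43 had a control level at or above 2 times the free-RNA estimate and 22 were under it. Il6, Il6st and Osmr in neutrophil-like cells and Il6 and Osm in T-like cells were among the 22. Free RNA, estimated as a share of the library's pooled level, was itself 24.2% in control and 11.3% in AF12198 tumour in neutrophil-like cells. In T-like cells it was 17.2% and 6.93%, and only mast or basophil-like cells had a higher share in the AF12198 tumour (7.20% against 2.19%). In macrophage or monocyte-like cells 8 of 10 were lower, beside 30.6% of all genes, in neutrophil-like cells 7 of 9 beside 38.3%, in dendritic-like cells 8 of 8 beside 37.9% and in T-like cells 7 of 8 beside 41.0%. In fibroblast-like cells Il6, Osm, Il6ra and Lifr were lower, 4 of 10, beside 27.8%, in epithelial-like cells 5 of 10 beside 27.3% and in endothelial-like cells 5 of 9 beside 26.3%. The smaller classes gave 7 of 7 lower in acinar-like cells beside 75.3%, 4 of 7 in erythroid-like beside 44.2%, 4 of 6 in B-like beside 39.8%, 3 of 6 in plasma-like beside 39.3%, 3 of 4 in mast or basophil-like beside 33.4% and 0 of 2 in NK or innate lymphoid-like cells beside 37.3%. The 2 higher values stood beside 8.98% of all genes in fibroblast-like and 10.4% in epithelial-like cells. In the classes with no higher value the share of all genes that were higher was 8.65% in macrophage or monocyte-like, 7.65% in neutrophil-like, 7.22% in dendritic-like, 6.83% in T-like, 11.5% in endothelial-like, 7.10% in B-like, 8.79% in NK or innate lymphoid-like, 12.5% in plasma-like, 8.84% in erythroid-like, 23.6% in mast or basophil-like and 4.28% in acinar-like cells. The median gene stood at 0.760 to 0.861 times its control level in the fibroblast-like, macrophage or monocyte-like, neutrophil-like, endothelial-like and epithelial-like cells, and relative to the median 41 values were lower and 6 higher.

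**Figure D5:**
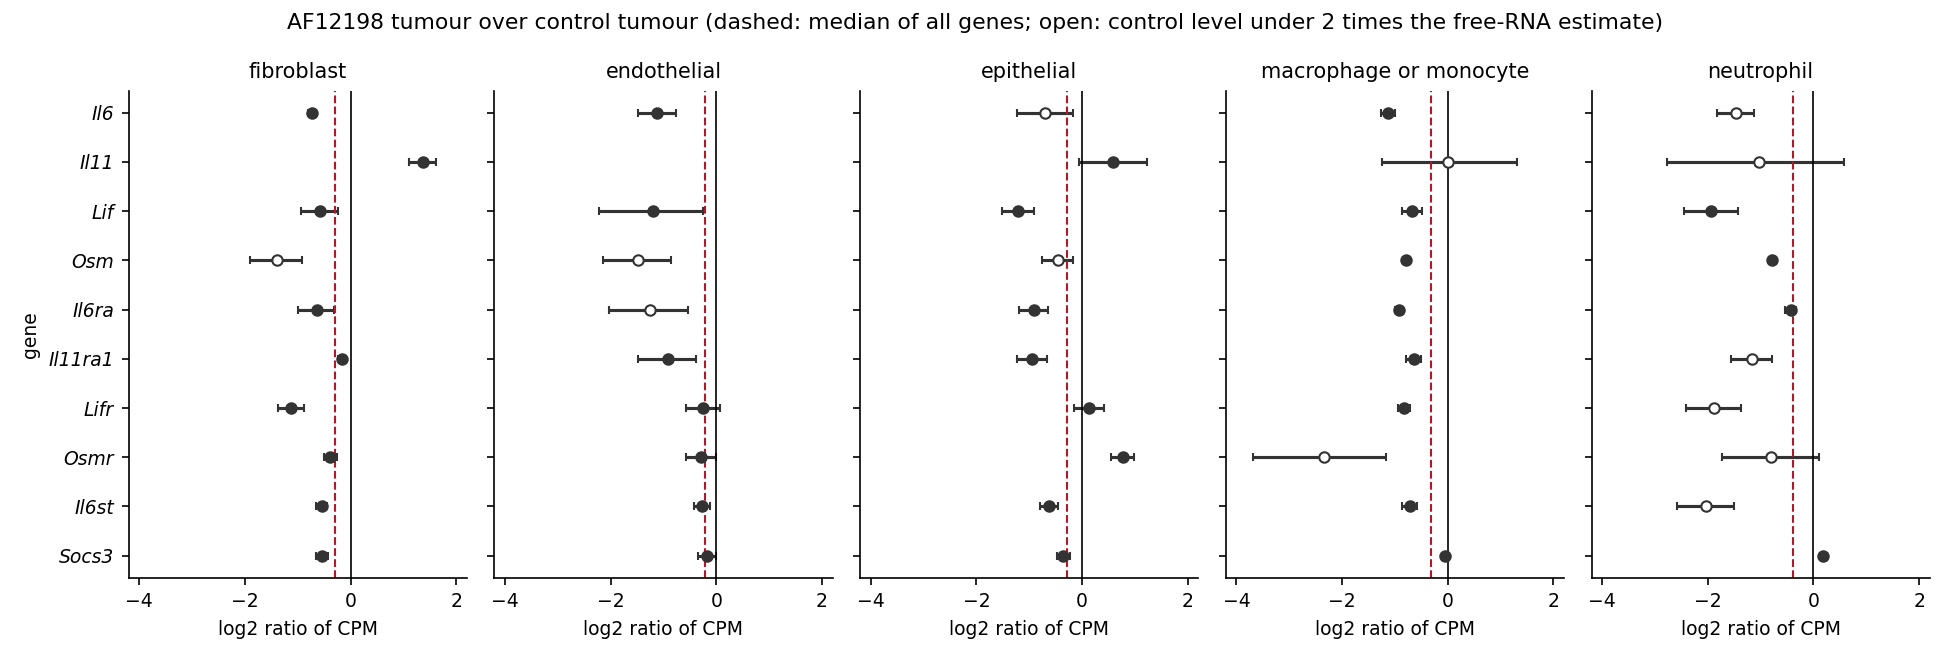
Log2 ratio of CPM, AF12198 tumour over control tumour, for each of the 10 genes in 5 classes; points are single ratios with 95% counting intervals, the dashed line is the median of all genes in the class, and open points had a control level under 2 times the free-RNA estimate. Il11 in fibroblast-like cells (2.57-fold) and Osmr in epithelial-like cells (1.71-fold) are the filled points past 1.5-fold on the right, and Osm (0.577) and Il6 (0.458) in macrophage or monocyte-like cells lie left of the median.

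Genes set off by the tissue digestion also differed between the libraries. The summed level of 16 such genes (Fos, Jun, Egr1 and others) in control and AF12198 tumour was 19966 and 12686 CPM in fibroblast-like, 13579 and 6474 CPM in macrophage or monocyte-like and 35470 and 14264 CPM in neutrophil-like cells. In normal and ligated pancreas it was 15539 and 16796 CPM in fibroblast-like and 23593 and 11358 CPM in macrophage or monocyte-like cells. In epithelial-like cells, where 6 genes were lower in control tumour than in ligated pancreas, it was 28586, 26300, 8221 and 5297 CPM. Their part in these differences was not tested. In fibroblast-like cells the summed level of 14 neutrophil markers was 232, 221, 1093 and 751 CPM in the order of the libraries, that of 16 macrophage or monocyte markers 1035, 833, 1230 and 1328 CPM and that of 12 pericyte or smooth muscle markers 195, 152, 225 and 252 CPM, against 32589 to 59166 CPM for 16 fibroblast markers. Of these lists, normal pancreas had 11 neutrophil, 9 macrophage or monocyte and 4 pericyte or smooth muscle markers at 0, among them S100a8, C1qa and Myh11. Their part in the fibroblast-like values was not tested.

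Other genes of the pathway were read from fixed lists in fibroblast-like cells, with list medians on the log2 scale and counts of 0 at the floor. Of the JAK and STAT signal carriers 4 of 14 measured were higher and 3 lower in ligated than in normal pancreas, beside 20.4% and 18.1% of all genes. The list median was -0.03 on the log2 scale beside -0.01 for all genes. Stat3, the factor the family activates, stood at 223 against 116 CPM (1.93-fold, 1.49 to 2.54). Of 16 measured between control tumour and ligated pancreas 3 were higher and none was lower (median 0.38 beside 0.12). There 23.8% of all genes were higher and 16.1% lower. Between the tumours 0 were higher and 8 of 16 lower, beside 8.98% and 27.8% of all genes (median -0.52 beside -0.29). The lower ones included the adaptor genes Gab1 and Gab2 at 0.467 and 0.489 times control.

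STAT3 target genes were mostly higher in ligated than in normal fibroblast-like cells. Of 21 measured 11 were higher and 3 lower, beside 20.4% and 18.1% of all genes. The list median was 0.63 on the log2 scale beside -0.01 for all genes. The acute-phase gene Saa3 stood at 840 CPM against 0 UMIs, at least 160-fold higher, and Hp, the haptoglobin gene, at 157 against 3.51 CPM, while Steap4 stood at 0.561 times its normal level. Between control tumour and ligated pancreas 11 of 24 were higher and 2 lower, beside 23.8% and 16.1% of all genes. The medians were 0.55 beside 0.12, or 0.63 beside 0.12 on the log2(CPM + 1) scale. Between the tumours 5 of 25 were higher and 6 lower, beside 8.98% and 27.8% of all genes (-0.18 beside -0.29). Steap4 stood at 76.9 against 206 CPM. One of the higher genes, Reg3b (37.8 against 12.2 CPM), lay under its free-RNA estimates of 69.6 and 25.1 CPM, and acinar-like cells, 325 in the AF12198 and 66 in the control tumour, held 91.1% and 86.1% of its UMIs. In epithelial-like cells Lcn2, an iron-carrier binding protein, stood at 386 against 95.8 CPM (4.03-fold, 3.81 to 4.27).

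Genes known beside IL-6 in inflammatory fibroblasts did not all follow Il6 between the tumours. Of 16 measured 2 were higher and 3 lower, beside 8.98% and 27.8% of all genes. The list median was 0.02 beside -0.29 for all genes. The higher ones were the chemokine genes Ccl2 (830 against 494 CPM) and Cxcl1 (1001 against 664 CPM). The lower ones included Ptgs2, the gene of cyclooxygenase-2 (329 against 640 CPM), and the chemokine gene Cxcl12 (306 against 488 CPM). In ligated over normal pancreas 12 of 16 were higher and 1 lower, beside 20.4% and 18.1% of all genes (0.99 beside -0.01). Cxcl2 was among the higher ones (611 against 15.8 CPM), and Clec3b was lower (751 against 1554 CPM). Myofibroblast genes, which mark contractile and matrix-making cells, were higher for 13 of 14 in ligated over normal, 12 of 15 in control over ligated and 6 of 15 in AF12198 over control tumour, with 1, 0 and 2 lower. Over all genes 20.4%, 23.8% and 8.98% were higher and 18.1%, 16.1% and 27.8% lower. The list medians were 3.85, 1.80 and -0.06 beside -0.01, 0.12 and -0.29. Lrrc15 and Myl9 were among the 6, at 2.22 and 2.10 times control, and Inhba and Col8a1 were the 2 lower ones, at 0.596 and 0.657.

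Of the other family ligands and receptors few were measured. In fibroblast-like cells Cntfr, the receptor subunit that the ligand CLCF1 binds, stood at 43.9, 11.5, 6.14 and 10.1 CPM, and Lepr, the leptin receptor gene, at 47.4, 16.8, 5.34 and 1.74 CPM. In epithelial-like cells Clcf1, the gene of that ligand, stood at 115 CPM in control and 50.9 in AF12198 tumour. Of this list 1 of 3 was higher and 2 lower in ligated over normal, 3 and 3 of 8 in control over ligated and 1 and 4 of 8 in AF12198 over control tumour, with medians of -1.50, 0.23 and -0.51. The pathway inhibitors other than Socs3 were 3 higher and 2 lower of 13, 7 and 0 of 16, and 0 and 8 of 16 in the same comparisons, with medians of 0.30, 0.21 and -0.52. Of all genes 20.4%, 23.8% and 8.98% were higher and 18.1%, 16.1% and 27.8% lower, so the first of these inhibitor counts lay near the background.

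The pattern of each ligand and of Socs3 over 37 units (a class in a library, at least 25 cells each) was set beside that of 13993 genes by Pearson's r of log2(CPM + 1). The units share libraries and classes, and r is given as a description. Among the 5 genes most like Il6 were Gask1b (0.78), Hgf (0.75), Vwa5a (0.73) and Esr1 (0.73), and most like Il11 were Gpx8 (0.82), Nexn (0.81), Mmp11 (0.80), Scarf2 (0.80) and Sulf1 (0.80). Most like Osm were Cd300lf (0.97), Cyp4f18, Nfam1, Cd300ld and C5ar1 (each 0.96), and most like Socs3 were Dstyk (0.87), Tcn2, Scarb2 and Parp12 (each 0.86) and Csnk1e (0.85). For Lif the highest values were lower, with Ccdc22 and Kptn at 0.73, Acsl4 at 0.71, P4ha1 at 0.70 and Phlda1 at 0.69.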

How the data were processed

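The authors deposited whole-number UMI counts of every gene in every cell barcode, from 10x Genomics 3' libraries (v3) per the labels, made per the submitters' processing notes with Cell Ranger 6.0.0 and mm10. Which annotation and cell-calling settings were used is not given in the sources used here. From these counts, cells with at least 250 genes, 500 UMIs and at most 20% mitochondrial UMIs were kept, and Scrublet doublets removed per library (3, 0, 2110 and 1017). Cells were scaled to 10000 counts and clustered without integration (scanpy 1.11.5, Python 3.11.15; 2000 variable genes without the 10 members, of which 3 would have been variable, 40 components, 20 neighbours, Leiden resolution 1.0). Doublets that Scrublet missed may remain.

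A cluster took a class name when 3 or more of that class's markers stood 2-fold or more above the other clusters and 10% or more of its cells held them. It stayed unnamed where another class had most of its markers raised too, or more of its markers among the top 10 genes. The naming thresholds were chosen after the data were examined. UMIs were summed per class and library as CPM, with ratios between classes of at least 25 cells and 10 UMIs of the gene together. Free RNA was estimated per class from the level of unrelated classes' markers. A count of 0 was set at a floor of 3 counts in calls, folds and list medians, and no fold was given where this bound lay at or under 1. Ratios were tested on simulated data first.

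All 10 members were named. In 4 classes up to 2 genes with the highest and 2 with the lowest ratio past 1.5-fold were named per list, and the 5 genes most like each ligand and Socs3. Members and lists were chosen with earlier results of these data known. Some genes that this rule names are not reported here.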

Additional observations from a re-analysis of the deposited data

How the results depend on the processing

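No paired analysis was possible because each group is 1 library, and no library could be left out for the same reason. For ratios 11 alternatives were tried, of which leaving out barcodes found in more than 1 library was chosen after seeing the data. Keeping the finer fibroblast-like clusters to cells of the coarser class was added in the same way and reversed no ratio. Among 15 reversals, Socs3 in macrophage or monocyte-like cells of the AF12198 over control tumour turned to 1.02 with CPM without mitochondrial, ribosomal protein and rRNA-collecting genes, to 1.00 at the UMI minimum of the control tumour, to 1.09 with each cell weighted equally and to 1.21 relative to the median of all genes. The median also turned Il11ra1 in fibroblast-like (1.09) and Socs3 in endothelial-like cells (1.03). Weighting cells equally turned Osmr in endothelial-like cells to 1.05, Lif in macrophage or monocyte-like cells of control over ligated to 4.02, Il11ra1 in fibroblast-like cells of ligated over normal to 1.00 and Il6 in endothelial-like cells of control over ligated to 0.884 (0.744 at resolution 0.5). With free RNA subtracted, control residues at or under the floor gave AF12198 over control values of 12.4 for Il6 and 9.69 for Il11ra1 in neutrophil-like cells and of 4.76 for Il6 and 8.09 for Osm in epithelial-like cells.

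The AF12198 over control ratio of Il6 in fibroblast-like cells was 0.734 relative to the median and 0.812 with equal weights, that of Il11 3.14 relative to the median, and that of Osm in neutrophil-like cells 0.762 relative to the median, 0.636 with equal weights, 0.519 with free RNA subtracted and 0.529 with the stricter filter (500 genes, 1000 UMIs, 10% mitochondrial). Control over ligated Il6 in fibroblast-like cells was 1.30 without mitochondrial and ribosomal genes and 2.03 with equal weights.

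The count of 2 higher values in AF12198 over control tumour was 4 at the UMI minimum, at resolutions 0.5 and 2.0, with members kept in clustering and without mitochondrial and ribosomal genes, 6 relative to the median, 13 with free RNA subtracted, 1 at a fold of 2 and 5 with no minimum count. The 65 lower became 41 relative to the median and 40 at a fold of 2. With free RNA subtracted the 13 higher and 20 lower of control over ligated became 8 and 13. The 8 higher of ligated over normal became 5 with the stricter filter, 4 at a fold of 2 and 14 with no minimum, and the 2 lower became 4 with no minimum and 1 with the stricter filter, the UMI minimum, resolution 0.5, a fold of 2 or without shared barcodes. The cause of these changes was not tested. Over 114 other ratios, 1124 values under alternatives stayed within the counting interval, 79 moved past it and 15 are those above. Classes with few UMIs, above all in normal and ligated pancreas, limit the precision.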
